A study of Mus musculus with 14 samples.

Results

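The 35 genes described here build the mitotic spindle and the kinetochore or drive cells through mitosis and cytokinesis. They were picked by symbol in the platform annotation. A probe set was named for 34 of the 35, out of 18193 genes with a probe set of a single symbol, and Ccnb1, the gene of cyclin B1, had no probe set named for it and is not analysed here. Where several probe sets carried a symbol, the one with the highest mean over all arrays stood for the gene. Total RNA of whole lungs from ICR mice had been hybridised to 14 Affymetrix whole-genome mouse oligonucleotide arrays, 2 at each of 7 time points: embryonic days 12, 14, 16 and 18 (E12 to E18, counted from the plug as day 0), postnatal days 2 and 10 (P2 and P10) and postnatal day 30 (Adult). All samples are labelled ICR and female. Lungs were pooled, the number in a pool is not stated, and neither is whether the arrays of a time point came from separate pools, so each SE and p below may measure technical spread alone. Values are log2 signals of the authors, on which a difference of 1 is a doubling. A difference was called when its adjusted p from limma over all probe sets was under 0.05.

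A dividing cell attaches its chromosomes to spindle microtubules through kinetochores, protein complexes laid on the centromere. The spindle checkpoint holds the anaphase-promoting complex in check until every chromosome is attached, after which sister chromatids part and the cell is cleaved. Most of these genes are transcribed late in the cell cycle and are at low level in resting cells, which is why their transcripts are used as a readout of proliferation, and in the lung growth is fast during branching and resumes when alveoli form after birth. In RNA of whole lung, fewer dividing cells and less RNA in each of them cannot be told apart.

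Most of the 34 genes kept a high level from E12 to E16, dropped steeply between E16 and E18, came back in small part at P2 and P10, and reached their lowest level in Adult. The median over genes of the time-point means was 10.69 at E12 and 10.56 at E14, still 10.54 at E16, then 7.76 for E18, 8.18 for P2, 8.09 for P10 and 6.57 for Adult. The highest mean fell at E12 for 17 genes, at E14 for 13, at E16 for 3 and at E18 for 1. The lowest lay in Adult for 31. The largest of the 7 means is called Max and its distance from the smallest Range. Max exceeded 7 for all 34 genes. Of these, 31 of 34 were dynamic, which asks for that Max, for a Range over 1.2 and for an F test across time with an adjusted p under 0.05, against 26.7% of all genes. The remaining 3 were Cdc25b with a Range of 0.54, Bub3 with 1.13 and Foxm1 with 0.39. Means under 7, the bound that the methods put on Max, were held by 0 genes up to E16, by 6 at E18, by 3 for P2, by 4 for P10 and by 25 in Adult.

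**Figure D1:**
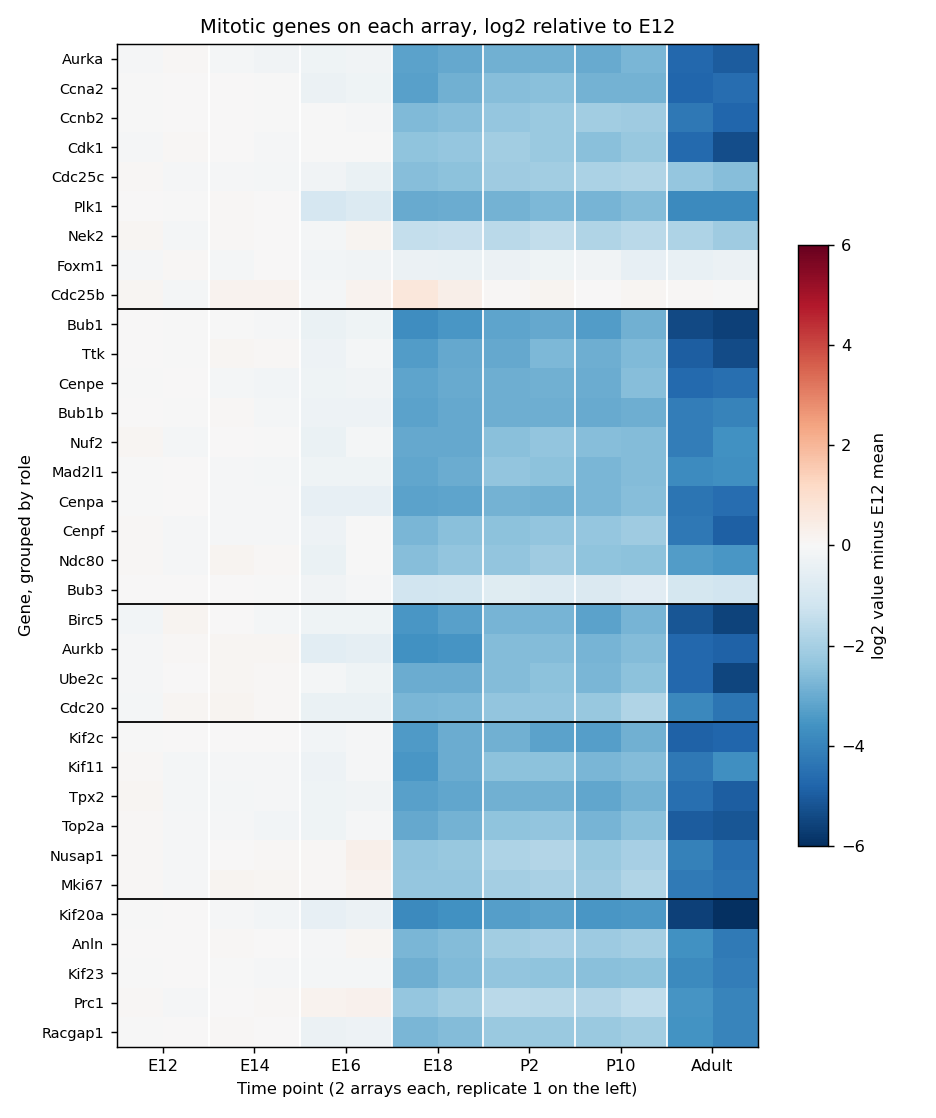
Each row is a gene, grouped by role, and each column an array, with replicate 1 on the left of each time point; colour gives the log2 value minus the gene's E12 mean. All rows but those of Cdc25b and Foxm1 turn blue at E18, are paler at P2 and P10 in most rows and, in 31 of 34, are lowest in Adult.

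Promoters of these genes are shown because most of them moved together and because a pair of sequence elements, the cell cycle genes homology region (TTTGAA) and the CCAAT box, is well known from genes of late cell cycle. RefSeq windows on GRCm38.p6, from 250 bases before to 50 bases after the start, were at hand for 29 of the 35 genes (Ccnb1 among them). Both strands were searched. TTTGAA was found in 20 of 29 windows (69.0%), against 14.2% of 9420 genes with a Max above 7 and 20.2% of all 27025 genes with a window. CCAAT stood in 22 of 29 (75.9%), against 42.5% and 41.1%. Both were held by 17 of 29 (58.6%), against 5.6% and 8.0%. The related TTTAAA stood in 9 of 29, against 11.1% and 14.9%, and the E2F motifs TTTGGCGC and TTTCCCGC in 0 of 29, against 3.5% and 1.8% for either. A window was counted once however many matches it held, so that overlapping matches, such as CCAAT on both strands within the CCAATTGG of Ube2c, add nothing to these shares. With positions known, TTTGAA was also counted within 50 bases of the start, where it stood in 18 of 29 windows (62.1%) against 3.8% of genes with a Max above 7. A pair of CCAAT on the same strand 31 to 33 bases apart was held by 6 (20.7%), namely Aurka, Ccnb1, Ccnb2, Cdk1, Nek2 and Ube2c, against 1.7%. These are matches of letters, not binding sites.

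The 250 bases before the start are printed below for the 6 measured genes with both motifs there that fell most, of 8 such genes. Cdc25b, the gene that moved the other way, is printed too. The 6 were picked for holding both motifs, so their difference from Cdc25b in TTTGAA was set by that choice. The first start that RefSeq lists was used for each gene. Prc1, which fell more than Cdk1, holds both motifs before its other start, and that stretch is not printed because it runs into the transcript of the first. Capitals mark TTTGAA or its reverse complement TTCAAA, and CCAAT or its reverse complement ATTGG, read 5′ to 3′ on the strand of the gene. The stretches lie at chr19:37376132-37376381 on the + strand (Kif11), chr11:99024190-99024439 on the - strand (Top2a), chr2:164769679-164769928 on the + strand (Ube2c), chr9:70421555-70421804 on the - strand (Ccnb2), chr7:135716380-135716629 on the - strand (Mki67), chr10:69352913-69353162 on the - strand (Cdk1) and chr2:131186698-131186947 on the + strand (Cdc25b).
Kif11: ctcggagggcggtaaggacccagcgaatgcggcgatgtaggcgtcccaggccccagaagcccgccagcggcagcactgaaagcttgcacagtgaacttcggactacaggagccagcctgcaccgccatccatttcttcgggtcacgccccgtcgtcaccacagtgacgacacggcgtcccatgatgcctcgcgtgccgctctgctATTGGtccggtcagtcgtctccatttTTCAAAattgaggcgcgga
Top2a: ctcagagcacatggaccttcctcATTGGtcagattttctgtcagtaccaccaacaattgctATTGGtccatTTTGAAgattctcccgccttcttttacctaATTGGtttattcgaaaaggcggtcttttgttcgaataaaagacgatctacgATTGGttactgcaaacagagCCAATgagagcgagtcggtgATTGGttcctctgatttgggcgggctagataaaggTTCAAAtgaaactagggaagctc
Ube2c: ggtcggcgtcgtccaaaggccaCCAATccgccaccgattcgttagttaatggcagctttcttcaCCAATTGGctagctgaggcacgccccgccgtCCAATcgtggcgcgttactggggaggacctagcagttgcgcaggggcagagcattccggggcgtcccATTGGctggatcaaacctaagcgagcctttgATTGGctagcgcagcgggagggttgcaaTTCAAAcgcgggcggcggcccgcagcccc
Ccnb2: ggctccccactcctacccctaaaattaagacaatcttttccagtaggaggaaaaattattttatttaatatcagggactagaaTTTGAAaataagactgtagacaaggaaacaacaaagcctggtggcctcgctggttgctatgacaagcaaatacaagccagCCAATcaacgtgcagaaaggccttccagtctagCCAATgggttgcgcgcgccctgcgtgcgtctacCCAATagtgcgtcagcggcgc
Mki67: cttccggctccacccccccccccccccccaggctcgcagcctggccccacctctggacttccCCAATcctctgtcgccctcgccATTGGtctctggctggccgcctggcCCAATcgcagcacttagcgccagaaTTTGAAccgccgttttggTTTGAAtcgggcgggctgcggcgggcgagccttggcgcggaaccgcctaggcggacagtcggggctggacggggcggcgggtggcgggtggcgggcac
Cdk1: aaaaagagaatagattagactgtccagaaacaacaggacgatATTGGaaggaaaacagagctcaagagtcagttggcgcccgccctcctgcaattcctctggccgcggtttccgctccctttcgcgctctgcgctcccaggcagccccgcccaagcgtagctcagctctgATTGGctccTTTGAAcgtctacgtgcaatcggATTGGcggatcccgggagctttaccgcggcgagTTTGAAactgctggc
Cdc25b: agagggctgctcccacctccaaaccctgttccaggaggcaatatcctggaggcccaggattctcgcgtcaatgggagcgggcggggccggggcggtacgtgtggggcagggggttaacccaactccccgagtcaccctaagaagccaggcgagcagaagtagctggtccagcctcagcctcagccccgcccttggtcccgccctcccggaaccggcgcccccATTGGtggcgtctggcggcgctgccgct
Top2a and Ube2c each hold CCAAT 6 times in this stretch, and Ccnb2, Mki67 and Cdk1 each hold it 3 times. Kif11, which fell most of those printed, holds it 1 time. The stretch of Cdc25b holds CCAAT 1 time and TTTGAA 0 times. TTTGAA was in 20 of 29 windows, but not in those of Bub1 and Birc5, which fell by 3.28 and 3.11.

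From E12 to E14, limma called 0 of 34 genes, where 4.33% of all genes were called in either direction. Of the 34, 0 had an unadjusted p under 0.05 and 0 were called with the unmoderated test. The median difference was -0.00. From E14 to E16 it was -0.17, and 5 genes fell, against 10.6% of all genes. Plk1, a kinase of spindle poles and kinetochores, fell by 0.97 (SE 0.099, adjusted p = 2.62e-05). Aurkb, the kinase of the chromosomal passenger complex, fell by 0.72 (SE 0.094, adjusted p = 0.000204). Cdc20, the activator of the anaphase-promoting complex, fell by 0.54, Cenpa by 0.42 and Racgap1 by 0.35. The share of 5 in 34 lies near that of all genes, and 2 were called without E14 replicate 1 and 3 without E16 replicate 1 or either P2 array.

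From E16 to E18, 32 of 34 genes fell, against 21.6% of all genes. The median difference was -2.72, a 6.58-fold drop, where the median over all genes was 0.03. Of all 18193 genes, the 250 with the largest fall (1.37%) held 30 of these genes, and Kif20a and Bub1 ranked 18 and 19. At E18 the 32 genes kept between 10.1% (Kif20a) and 49.7% (Bub3) of their E16 level. Cdc25b rose, and Foxm1 was not called. E16 replicate 1 carried transcripts of heart muscle: the summed linear level of 8 heart genes was 22705 there and 4542 in replicate 2, with Myl2 at 12.63 and 8.84. On the arrays of the other time points Myl2 read 4.65 to 6.27, so for Myl2 replicate 2 stood above them as well. The summed level of the 8 genes in replicate 2 did not: it lay above E12 and E14 (2272 to 2749) but below every later array (5791 to 14499). Without replicate 1 the median difference from E16 to E18 was -2.70, but this leaves the Myl2 transcripts of replicate 2 in E16.

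**Figure D2:**
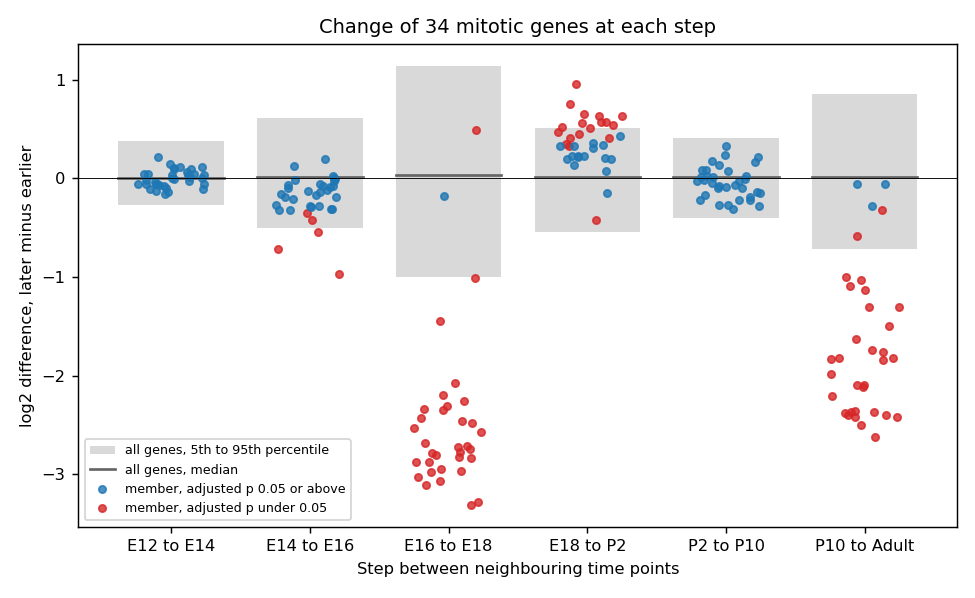
Points are the log2 differences of the 34 genes at each step between neighbouring time points, later minus earlier, red where the adjusted p was under 0.05; grey boxes span the 5th to 95th percentile of all 18193 genes and the grey line is their median. From E16 to E18, 32 points lie at or below -1.01, outside the grey box, and from P10 to Adult 31 are red and below 0.

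After birth the genes were slightly above E18. At P2, 17 of 34 were higher than at E18, against 8.58% of all genes, with a median difference of 0.36, and 1 was lower, Cdc25b, against 10.0%. Differences were above 0 for 32 of 34. The 32 genes that fell had regained a median of 14.8% of their log2 fall by P2, from -10.2% for Nek2 to 35.1% for Bub3. The call rests on few arrays. Without E18 replicate 1, 2 genes were higher, against 4.85% of all genes, and 11 were without E18 replicate 2, against 6.29%. Without P2 replicate 1 there were 5, against 4.19%, and without P2 replicate 2 there were 3, against 4.82%. The counts of 2 and 3 in 34 lie near the shares of all genes. In these settings 31 or 32 differences were above 0 and the medians ran from 0.32 to 0.42. The genes were read on the same arrays and can shift together, so the number above 0 does not count independent results. Aurkb and Mad2l1 were the 2 genes called at P2 whichever of the arrays was left out, so the other calls between E18 and P2 given below depend on which arrays are used. In E18 replicate 1, 29 of 34 genes were below replicate 2, by a median of 0.14.

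Between P2 and P10, limma called 0 of 34, against 9.18% of all genes in either direction. The unmoderated test called 0 as well. At an unadjusted p under 0.05 there were 5, a cutoff for which the share of all genes is not given. At P10, 14 genes were higher than at E18, against 13.9%, and 1 was lower, again Cdc25b, against 14.8%. Without E18 replicate 1 the count of higher genes was 4, against 9.70% of all genes, and without P10 replicate 2 it was 5, against 9.92%, both near the share of all genes. In P10 replicate 1, 30 of 34 genes were below replicate 2, by a median of 0.18. Whichever array was left out, 4 remained called, Cdc25c, Aurkb, Cenpa and Racgap1, and the other calls between E18 and P10 depend on which arrays are used. Of the 4, Cdc25c (mean 5.51 at E18, 6.16 at P10) and Aurkb (6.46 at E18) had E18 means under 7. Both E18 means were also under the array medians of 6.55 to 6.62 and were not shown to be above background. The median difference of P10 from E18 over the 34 genes was 0.34, and the E18 arrays serve both comparisons. At P10 32 genes were still below E16, against 23.9% of all genes, at a median difference of -2.30 (-2.36 without E16 replicate 1, with 32 called), and the median left of the E16 level was 19.8%.

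**Figure D3:**
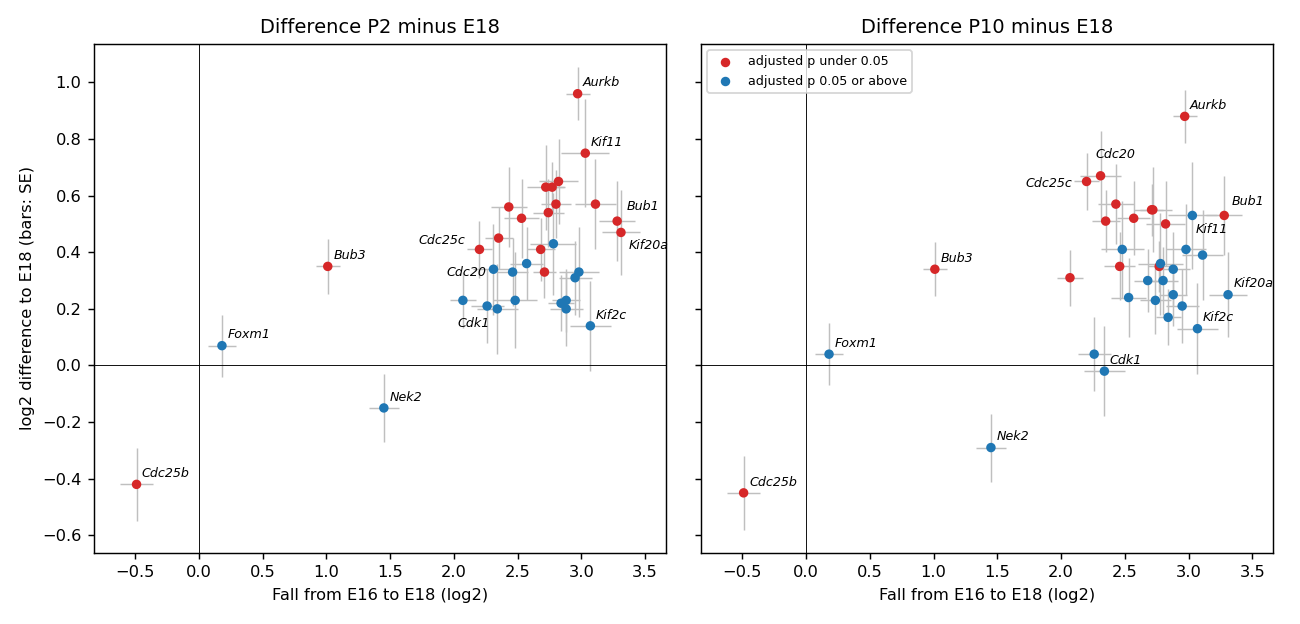
Each point is a gene, with its fall from E16 to E18 (log2) on the horizontal axis and its difference from E18 at P2 (left) or P10 (right) on the vertical axis; bars are SE, and red points had an adjusted p under 0.05 on the vertical axis. Both axes use the E18 arrays. Apart from Bub3, Nek2, Foxm1 and Cdc25b, the genes fell by 2.07 to 3.31 and differed from E18 by 0.14 to 0.96 at P2 and by -0.02 to 0.88 at P10; Nek2 and Cdc25b lie below 0 in both panels.

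From P10 to Adult, 31 of 34 genes fell, against 14.9% of all genes, with a median difference of -1.82. Cdc25b, Foxm1 and Nek2 were not called. Set against E18, Adult was lower for 31, against 20.0%, with a median of -1.45, and the exceptions were Cdc25c at 0.07, Bub3 at 0.02 and Foxm1 at -0.02. Against E12, 33 genes were lower in Adult, against 30.2% of all genes, by a median of 4.32 on the log2 scale. With 25 of the 34 Adult means under 7, and array medians over all probe sets of 6.55 to 6.62, most Adult values were not shown to be above background, so no fold is given for them.

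Among the kinases, cyclins and switches that start mitosis, 7 of 9 measured genes fell from E16 to E18, against 21.6% of all genes. Their median difference over the 9 was -2.20, the smallest median of the 5 roles. By P2 2 rose and by P10 3, against 8.58% and 13.9% of all genes. Cdk1, the kinase that drives entry into mitosis and whose promoter is printed above, had the highest mean of this role. It read 11.52 and 11.69 at E12, 11.61 and 11.56 at E14, 11.58 and 11.58 at E16, 9.2 and 9.29 at E18, 9.51 and 9.39 at P2, 9.11 and 9.35 at P10, with 6.94 and 6.28 in Adult. The arrays of E12, E14 and E16 lay together at the top, P10 overlapped E18, and P2 lay slightly above both. The drop to E18 was 2.34 (SE 0.16, adjusted p = 1.07e-07), P10 differed from E18 by -0.02, and Cdk1 then fell by 2.62 to Adult, the largest step of any of these genes after P10. Its partners, the cyclins, went down alongside. Ccna2 fell by 2.74 and was 0.54 higher at P2 than at E18 (adjusted p = 0.00702), and Ccnb2 fell by 2.57 and was 0.52 higher at P10 (adjusted p = 0.00836).

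Aurka, a kinase that matures centrosomes, read 10.72 and 10.84 at E12, 10.66 and 10.58 at E14, 10.51 and 10.56 at E16, 7.58 and 7.73 at E18, 7.89 and 7.88 at P2, 7.77 and 8.03 at P10, with 6.05 and 5.79 in Adult. E18 arrays lay below all earlier arrays and those of P2 and P10 slightly above. It fell by 2.88 from E16 to E18 (SE 0.11, adjusted p = 8.63e-10), and neither later difference from E18 was called (0.23 at P2, 0.25 at P10). Cdc25c, a phosphatase that activates Cdk1, read 8.09 and 7.95 at E12, 7.94 and 7.9 at E14, 7.79 and 7.62 at E16, 5.48 and 5.54 at E18, 5.9 and 5.94 at P2, 6.1 and 6.22 at P10, with 5.71 and 5.46 in Adult. Adult arrays lay around those of E18, below both of P2 and both of P10, and all arrays after E16 were under 7. Its fall to E18 was 2.20 (SE 0.1, adjusted p = 3.61e-09), the rise from E18 to P10 was 0.65 (adjusted p = 0.000476), the largest of this role, and Cdc25c was the gene with the lowest mean over arrays. Plk1, after its early step down at E16, fell by a further 2.07 and was 0.31 higher at P10 than at E18 (adjusted p = 0.0336).

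Nek2, a kinase that parts the centrosomes, was lower by its mean at P2 and P10 than at E18, and its arrays are given for that reason, chosen with the values known. They read 9.86 and 9.66 at E12, 9.84 and 9.76 at E14, 9.66 and 9.91 at E16, 8.31 and 8.37 at E18, 8.12 and 8.26 at P2, 7.96 and 8.14 at P10, with 7.89 and 7.65 in Adult. Each time point after E18 lay lower than the one before by its mean. The fall to E18 was 1.45 (SE 0.12, adjusted p = 5.01e-07), while the differences of P2 (-0.15), P10 (-0.29) and the step to Adult (-0.28) were not called. A further Nek2 probe set with a Max above 7 fell by 1.01 to E18 (adjusted p = 4.98e-06) and differed by -0.14 at P10.

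Cdc25b, the phosphatase that starts Cdk1 activation at the centrosome, was the exception in direction. The arrays read 8.41 and 8.2 at E12, 8.51 and 8.54 at E14, 8.2 and 8.5 at E16, 9.0 and 8.68 at E18, 8.36 and 8.48 at P2, 8.34 and 8.44 at P10, with 8.38 and 8.28 in Adult. The E18 arrays were the highest of the 14, and all others lay in a narrow band. The rise from E16 to E18 was 0.49 (SE 0.13, adjusted p = 0.00728), in a step where 24.8% of all genes rose. It was 0.34 without E16 replicate 1 (adjusted p = 0.0945) and 0.33 without E18 replicate 1 (adjusted p = 0.0992). By P2 it had dropped by 0.42 (adjusted p = 0.0404), and Adult differed from E12 by 0.02.

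Foxm1, a transcription factor of mitotic genes, depended on the probe set. The one with the highest mean read 7.85 and 8.02 at E12, 7.82 and 7.94 at E14, 7.76 and 7.72 at E16, 7.61 and 7.52 at E18, 7.6 and 7.66 at P2, 7.74 and 7.46 at P10, with 7.51 and 7.58 in Adult. All arrays lay between 7.46 and 8.02, and E18 minus E16 was not called (difference -0.18, SE 0.11, adjusted p = 0.213). The probe set with the largest Range read 7.87 and 8.14 at E12, 8.1 and 8.18 at E14, 7.62 and 7.36 at E16, 6.12 and 6.1 at E18, 6.31 and 6.3 at P2, 6.27 and 6.67 at P10, with 5.36 and 5.36 in Adult. There, E18 lay below every earlier array and Adult below all, with a fall of 1.38 to E18 (SE 0.13, adjusted p = 2.09e-06) and of 1.11 from P10 to Adult (adjusted p = 3.25e-05). Another set with a Max above 7 fell by 0.36 to E18 (adjusted p = 0.0435).

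**Figure D4:**
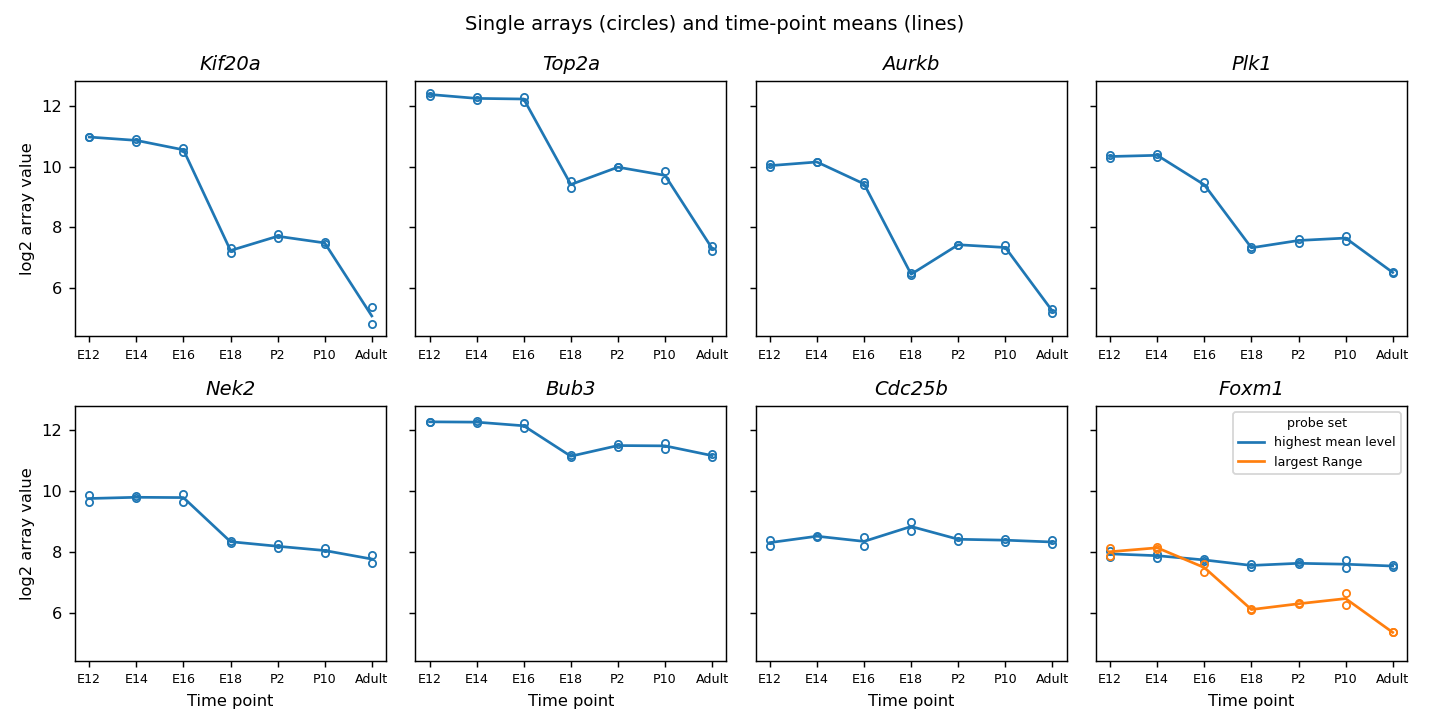
Circles are single arrays and lines join time-point means (log2 value against time point, not to scale in time) for 8 genes chosen with the values known, with 2 probe sets for Foxm1. Kif20a, Top2a, Aurkb and Plk1 drop at E18 and again in Adult, Nek2 is lower at P2 and P10 than at E18, Bub3 falls least of those called, and Cdc25b is highest at E18.

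All 10 genes of the kinetochore and its checkpoint fell from E16 to E18 (median difference -2.79), against 21.6% of all genes. At P2 5 were higher than at E18, against 8.58%, and at P10 5, against 13.9%. All 10 fell from P10 to Adult, against 14.9%. Bub1, a checkpoint kinase at the kinetochore, read 11.37 and 11.31 at E12, 11.3 and 11.25 at E14, 10.93 and 11.07 at E16, 7.6 and 7.83 at E18, 8.19 and 8.25 at P2, 8.01 and 8.47 at P10, with 5.91 and 5.74 in Adult. No E18, P2 or P10 array came within 2 units of an earlier array. It fell 9.74-fold, by 3.28 (SE 0.14, adjusted p = 1.13e-09), rose by 0.51 to P2 (adjusted p = 0.0227) and in Adult was lower than at E12 by 5.52 on the log2 scale, with both Adult arrays under 7.

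Ttk, the checkpoint kinase also known as Mps1, read 9.77 and 9.69 at E12, 9.84 and 9.82 at E14, 9.41 and 9.62 at E16, 6.4 and 6.67 at E18, 6.67 and 7.05 at P2, 6.81 and 7.08 at P10, with 4.77 and 4.36 in Adult. P2 replicate 1 and E18 replicate 2 met at 6.67. The fall was 2.98 (SE 0.16, adjusted p = 9.53e-09) and the difference of P2 from E18, 0.33, was not called (adjusted p = 0.205). Bub1b, the pseudokinase BubR1 of the checkpoint, read 10.95 and 10.88 at E12, 10.99 and 10.78 at E14, 10.61 and 10.59 at E16, 7.68 and 7.83 at E18, 7.98 and 7.98 at P2, 7.88 and 7.96 at P10, with 6.76 and 6.9 in Adult. It fell by 2.84 (SE 0.099, adjusted p = 3.99e-10), P2 and P10 lay above both E18 arrays by small margins that were not called, and the later fall to Adult was 1.09.

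Cenpe, a kinesin that moves chromosomes at the kinetochore, read 10.17 and 10.19 at E12, 10.08 and 10.0 at E14, 9.93 and 9.99 at E16, 7.0 and 7.17 at E18, 7.25 and 7.32 at P2, 7.2 and 7.64 at P10, with 5.52 and 5.67 in Adult. The P2 arrays lay just above those of E18, P10 spread more widely, and the fall to E18 was 2.88 (SE 0.13, adjusted p = 1.92e-09). Nuf2, a subunit of the Ndc80 complex that binds microtubules, read 9.85 and 9.6 at E12, 9.76 and 9.7 at E14, 9.3 and 9.61 at E16, 6.64 and 6.63 at E18, 7.2 and 7.37 at P2, 7.15 and 7.12 at P10, with 5.57 and 6.09 in Adult. Both P2 and both P10 arrays lay above both E18 arrays. Nuf2 fell by 2.82 (SE 0.15, adjusted p = 1.04e-08) and rose by 0.65 to P2 (adjusted p = 0.0114). Its partner Ndc80 fell by 2.26, with 0.21 at P2 and 0.04 at P10 that were not called.

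Cenpa, the histone variant that marks the centromere, had the largest rise from E18 to P10 of this role. It read 11.31 and 11.39 at E12, 11.3 and 11.27 at E14, 10.88 and 10.85 at E16, 8.13 and 8.17 at E18, 8.52 and 8.45 at P2, 8.63 and 8.78 at P10, with 6.97 and 6.8 in Adult. The P10 arrays lay above both of E18 and P2. The fall to E18 was 2.71 (SE 0.092, adjusted p = 3.7e-10) and the rise to P10 0.55 (adjusted p = 0.000618). Mad2l1, which inhibits Cdc20, fell by 2.77 and rose by 0.63 to P2 (adjusted p = 0.0004), and Cenpf, a large protein of the outer kinetochore, fell by 2.48 with no call at P2 or P10.

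Bub3, a checkpoint subunit, fell least of the kinetochore genes. It read 12.28 and 12.28 at E12, 12.3 and 12.25 at E14, 12.08 and 12.23 at E16, 11.11 and 11.18 at E18, 11.54 and 11.46 at P2, 11.4 and 11.58 at P10, with 11.23 and 11.11 in Adult. The E18 and Adult arrays shared 1 range, while P2 and P10 lay between them and the arrays of E12 to E16. The fall was 1.01 (SE 0.096, adjusted p = 1.78e-06), P2 was 0.35 above E18 (adjusted p = 0.0239), and Adult was 2.16-fold below E12. Its fall from P10 to Adult, 0.32 (adjusted p = 0.025), was 0.23 without P10 replicate 2 (adjusted p = 0.182) and 0.25 without Adult replicate 2 (adjusted p = 0.173), so the call depends on single arrays. Of the 2 further Bub3 probe sets with a Max above 7, the brighter differed by 0.18 in the opposite direction (adjusted p = 0.163) and the dimmer fell by 0.49 (adjusted p = 0.015).

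The 4 genes of the chromosomal passenger complex and of anaphase all fell from E16 to E18 (median difference -2.87), against 21.6% of all genes. All 4 also fell from P10 to Adult (-2.23), against 14.9%. At P2 2 were higher than at E18, against 8.58%, and at P10 2, against 13.9%. Birc5, which is survivin and anchors the passenger complex, read 11.06 and 11.4 at E12, 11.24 and 11.09 at E14, 10.95 and 10.99 at E16, 7.73 and 7.98 at E18, 8.43 and 8.43 at P2, 8.02 and 8.46 at P10, with 6.08 and 5.67 in Adult. P2 lay above both E18 arrays and P10 spread across 8.02 to 8.46. It fell by 3.11, or 8.65-fold (SE 0.16, adjusted p = 8.2e-09), and rose by 0.57 to P2 (adjusted p = 0.0316).

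Aurkb had the largest rises from E18, at both P2 and P10. Its arrays read 9.98 and 10.09 at E12, 10.14 and 10.16 at E14, 9.39 and 9.48 at E16, 6.42 and 6.51 at E18, 7.43 and 7.43 at P2, 7.25 and 7.43 at P10, with 5.31 and 5.18 in Adult. Both P2 and both P10 arrays stood well clear of E18, and Adult lay below E18. The E18 mean, 6.46, was under 7 and not shown to be above background. After the step at E16 it fell by 2.97 to E18 (SE 0.094, adjusted p = 3.2e-10), rose by 0.96 to P2 (adjusted p = 1.84e-05) and at P10 was 0.88 above E18 (adjusted p = 1.59e-05), so that 32.5% of the log2 fall was regained at P2.

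Cdc20 read 11.95 and 12.16 at E12, 12.22 and 12.13 at E14, 11.65 and 11.63 at E16, 9.3 and 9.36 at E18, 9.66 and 9.68 at P2, 9.76 and 10.25 at P10, with 8.17 and 7.66 in Adult. P10 replicate 2 was the highest array after E16, and E18 was the lowest time point before Adult. The fall was 2.31 (SE 0.16, adjusted p = 1.3e-07), and P10 was 0.67 above E18 (adjusted p = 0.00912). Ube2c, the conjugating enzyme of the anaphase-promoting complex and 1 of the promoters printed above, fell by 2.78 and had an Adult mean under 7, with 0.43 at P2 and 0.36 at P10 that were not called.

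All 6 genes of spindle assembly, chromosome structure and motors fell from E16 to E18 (median difference -2.87), against 21.6% of all genes. All 6 also fell from P10 to Adult (-1.99), against 14.9%. At P2 3 were higher than at E18 and at P10 1, against 8.58% and 13.9% of all genes. The 1 of 6 at P10 lies near the share of all genes. Top2a, the topoisomerase that untangles sister chromatids, read 12.43 and 12.31 at E12, 12.29 and 12.19 at E14, 12.13 and 12.3 at E16, 9.28 and 9.54 at E18, 9.97 and 9.99 at P2, 9.56 and 9.86 at P10, with 7.38 and 7.24 in Adult. The P2 arrays lay above both E18 arrays, and P10 replicate 1 came close to E18. It fell by 2.80 (SE 0.12, adjusted p = 1.68e-09), rose by 0.57 to P2 (adjusted p = 0.00623) and was 33.4-fold below E12 in Adult.

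Kif11, the kinesin that pushes the spindle poles apart, read 9.67 and 9.48 at E12, 9.51 and 9.49 at E14, 9.28 and 9.51 at E16, 6.11 and 6.62 at E18, 7.13 and 7.1 at P2, 6.82 and 6.98 at P10, with 5.29 and 5.91 in Adult. Its E18 arrays were 0.5 apart, the widest spread of any of these genes at E18, and all P2 and P10 arrays lay above them. The fall was 3.03 (SE 0.19, adjusted p = 3.24e-08), the rise to P2 0.75 (adjusted p = 0.0155), and the difference at P10, 0.53, was not called (adjusted p = 0.0539). Mki67, the proliferation antigen Ki-67 that coats mitotic chromosomes, fell by 2.46 and rose by 0.35 to P10 (adjusted p = 0.0475).

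Kif2c, a kinesin that shortens microtubules at the centromere, read 10.36 and 10.38 at E12, 10.4 and 10.4 at E14, 10.19 and 10.28 at E16, 6.95 and 7.38 at E18, 7.47 and 7.15 at P2, 7.08 and 7.5 at P10, with 5.5 and 5.62 in Adult. E18, P2 and P10 overlapped throughout. It fell by 3.07 (SE 0.16, adjusted p = 5.74e-09), and 4.7% of that was regained at P2 and 4.2% at P10, neither called. Tpx2, which nucleates microtubules and activates Aurka, read 10.73 and 10.48 at E12, 10.47 and 10.51 at E14, 10.33 and 10.39 at E16, 7.33 and 7.49 at E18, 7.71 and 7.74 at P2, 7.5 and 7.75 at P10, with 6.06 and 5.66 in Adult. P10 replicate 1, at 7.5, stood next to E18 replicate 2, and the fall of 2.95 (SE 0.13, adjusted p = 2.42e-09) was followed by differences of 0.31 and 0.21 that were not called. Nusap1, which bundles spindle microtubules, fell by 2.53 and rose by 0.52 to P2 (adjusted p = 0.025).

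The 5 cytokinesis genes fell from E16 to E18 (median difference -2.68) and from P10 to Adult (-1.82), against 21.6% and 14.9% of all genes. All 5 were higher at P2 than at E18, by 0.41 to 0.63, and 3 at P10, against 8.58% and 13.9%. Of these rises, only that of Racgap1 at P10 stayed called whichever array was left out. Kif20a, the kinesin that carries Aurkb to the central spindle, read 10.96 and 10.98 at E12, 10.91 and 10.81 at E14, 10.48 and 10.62 at E16, 7.15 and 7.33 at E18, 7.65 and 7.78 at P2, 7.46 and 7.53 at P10, with 5.38 and 4.81 in Adult. P2 and P10 lay above both E18 arrays, and Adult lay below every other array. It had the largest fall of all 34, 9.93-fold or 3.31 on the log2 scale (SE 0.15, adjusted p = 2.22e-09), and both Adult arrays were under 7. The rise to P2 was 0.47 (adjusted p = 0.0472).

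Anln, or anillin, a scaffold of the cleavage furrow, read 10.94 and 10.94 at E12, 10.99 and 10.94 at E14, 10.89 and 11.08 at E16, 8.18 and 8.34 at E18, 8.84 and 8.95 at P2, 8.75 and 8.88 at P10, with 7.29 and 6.69 in Adult. The arrays of P2 and P10 lay together, above both of E18. It fell by 2.72 (SE 0.15, adjusted p = 1.36e-08) and rose by 0.63 to P2 (adjusted p = 0.0127) and by 0.55 to P10 (adjusted p = 0.0172). Prc1, which bundles the microtubules of the midzone, read 10.43 and 10.25 at E12, 10.34 and 10.4 at E14, 10.53 and 10.61 at E16, 8.03 and 8.25 at E18, 8.71 and 8.68 at P2, 8.59 and 8.82 at P10, with 6.81 and 6.36 in Adult. Its embryonic peak was at E16, and P2 and P10 again lay above E18. The fall was 2.43 (SE 0.14, adjusted p = 1.69e-08) and the rise to P10 0.57 (adjusted p = 0.00891). Kif23 and Racgap1, which form the centralspindlin complex together, fell by 2.68 and 2.35 and rose to P2 by 0.41 (adjusted p = 0.0298) and 0.45 (adjusted p = 0.0175).

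The 34 genes had 76 probe sets, and 23 genes had several. Of the 24 further probe sets with a Max above 7, 24 were lower at E18 than at E16 and 24 lower in Adult than at E12, 19 were lower in Adult than at P10 and 6 higher at P10 than at E18. For all genes, with 1 probe set each, these shares were 21.6%, 30.2%, 14.9% and 13.9%. Of the 18 with a lower Max, 9 were lower at E18 than at E16 and 10 lower in Adult than at E12. Only 2 of these 18 were lower in Adult than at P10, and 2 were higher and 1 lower at P10 than at E18. Both counts of 2 lie near the shares of all genes.

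Other genes of mitosis, listed by function, were counted in the same way. Of 35 further genes of the kinetochore and passenger complex, 34 fell from E16 to E18 with a median difference of -2.24, led by Cenpk (-3.39), Cenph (-3.36) and Ska1 (-3.21), the first pair of the inner kinetochore and the last of its microtubule coupler. The smallest changes were those of Zw10 (-0.62), Cenpo (-0.57) and Nsl1 (0.06, not called). At P2 16 were higher and 0 lower, and 28 fell from P10 to Adult. The shares of all genes for these counts are 21.6% lower at E18, 8.58% higher at P2 and 14.9% lower in Adult than at P10, and they hold for the next lists too.

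Of 34 further spindle and cytokinesis genes, 29 fell from E16 to E18 and 1 rose (median difference -2.01). Psrc1 (-3.43), Depdc1a (-3.35) and the kinase Melk (-3.27) fell most. Ndel1, a regulator of dynein, rose by 0.49 (adjusted p = 0.000945), while Numa1, which anchors spindle poles (0.24), and Kif14 (0.07, means under 7) were not called. At P2 9 were higher and 25 fell from P10 to Adult. The 20 genes of the anaphase-promoting complex and its regulators had a smaller median change than both other lists: 15 fell to E18, at a median difference of -0.52. Fbxo5, an inhibitor of the complex (-2.25), separase Espl1 (-2.12) and Anapc15 (-1.51) fell most, and Mad2l1bp (-0.17), Anapc13 (-0.13) and Anapc2 (-0.01) were not called. At P2 2 of the 20 were higher, a share near that of all genes, and 13 fell from P10 to Adult.

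By likeness of the 7 time-point means to the mean standardized profile of the 34 genes, 32 had a Pearson r above 0.95, Foxm1 had 0.92 and Cdc25b -0.16, which is a description since the profile is built from them. Outside the list the most alike were Cip2a and Ube2s (r = 0.9993 each), Cenpw, Melk, Cibar1, Cdca8, Rspry1, Cks2, Snrpe and Shcbp1 (0.9986 or above). Cip2a stood at 9.53 at E12, 6.45 at E18, 6.83 at P2 and 4.94 in Adult. The r takes no account of size: Rspry1 had a Range of 0.91 and Melk of 5.29.

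Markers of other cells moved over the same course. The summed linear level of 7 red cell precursor genes was 22297 and 22295 at E12, 3138 and 4801 at E16, 3433 and 2944 at E18 and 1862 and 908 in Adult, with means above 7 for 4 of 7 at E12, 3 at E16 and E18 and 1 in Adult. Hbb-y, the embryonic globin and the highest of the list at E12, went from a mean of 14.27 at E12 to 8.59 at E18, and Hbb-bh1 from 10.73 to 5.44. Alas2 instead rose from 8.26 at E12 to 11.15 at E18, and Slc4a1 stood at 8.07 and 8.23. Epb42, Klf1 and Rhag were under 7 at both. The sum therefore mostly follows Hbb-y and not the list as a whole. For 8 heart muscle genes the sum lay at 2272 to 2749 at E12 and E14, was highest in E16 replicate 1 and lay between 5791 and 14499 on every later array, with 2 of 8 above 7 before E16, 8 at E16 and 6 afterwards. For 7 thymus and T cell genes the sum was 366 to 561 in the embryo and 814 and 808 in Adult, with 0 to 2 of 7 above 7, and Rag1 read 5.80 in E16 replicate 1 and 3.67 or less on every other array. At most 1 of 6 liver genes and 1 of 6 skeletal muscle genes was above 7 at any time. All 6 lung epithelial genes were above 7 at every time, and their summed level went up, from 5572 and 5673 at E12 to 28371 and 27556 at E16 and 41191 and 40485 at E18, with 44147 and 44572 in Adult. This sum is led by Sftpc, whose mean went from 10.88 at E12 to 14.74 at E18. Means of Sftpb, Cdh1 and Nkx2-1 also rose from E12 to E18, Foxa2 went from 9.27 to 9.49, and Epcam fell from 11.04 to 10.38. The median of the 6 means was 9.32 at E12, 10.82 at E16 and 10.92 at E18. What part any of these cells had in the course of the mitotic genes was not tested.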

How the data were processed

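RNA of pooled whole lungs was measured on 14 arrays, 2 at each of 7 time points, and groups follow the sample titles. The log2 values were used as the authors deposited them, made with Partek Genomics Suite 6.4. The methods name Robust Multichip Average and the submitters' processing notes name GCRMA, so which of them gave the values is not settled, and low values differ between these methods. Of 45101 probe sets, 64 controls were left out. The rest comprised 34945 with 1 gene symbol in the platform annotation, 932 with several and 9160 with none. Array medians ran from 6.55 to 6.62, and the median SD between replicates of the members' probe sets was 0.082. With 2 arrays a time point, the number of arrays limits the precision.

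In R 4.3.3 with limma 3.58.1, a mean for each time point was fitted to all 14 arrays and 45037 probe sets and the variances were moderated (7 residual and 6.04 prior degrees of freedom). Adjusted p-values are Benjamini-Hochberg over all probe sets, and the fit was tested on simulated data. Percentages of all genes use 1 probe set a gene by the same rule. Share regained is the difference from E18 over the fall from E16, on the log2 scale. Shares of a level are on the linear scale. Promoter windows are RefSeq, GRCm38.p6.

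The members, the lists and the tests were chosen with earlier results of these data known. Array values are given for the 12 largest falls from E16 to E18, for genes that rose or were not called there, and for the highest mean and the largest rise from E18 to P10 of each role; of each other list the 3 largest and 3 smallest falls are named. Alternatives were another scaling, moderation, probe set rule, filter and threshold, a replicate block, and leaving out each array.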

Additional observations from a re-analysis of the deposited data

How the results depend on the processing

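The falls from E16 to E18 and from E12 to Adult moved little over the alternatives, and those to Adult from E18 or P10 moved more. Of 34 genes, 31 to 33 were lower at E18 than at E16, 23 to 32 lower in Adult than at P10, 31 to 33 lower in Adult than at E12, 31 to 33 lower at P10 than at E16, and 31 to 34 were dynamic. Leaving out each array in turn, 32 genes fell to E18 each time and 30 or 31 fell from P10 to Adult. The rises after birth did not hold in this way. Leaving out single arrays, 2 to 19 genes were higher at P2 than at E18 and 4 to 17 at P10, against 17 and 14 with all arrays. The shares of all genes then ran from 4.19% to 8.94% at P2 and from 9.70% to 13.9% at P10. For the other alternatives the share of all genes is not given, so their counts cannot be set against it. Without moderation 8 were higher at P2, and with only the arrays compared 9 were higher at P10. With a difference over 1.2 and a higher mean above 7 asked for as well, 0 were higher at P2, 0 at P10, and 19 were lower in Adult than at E18, against 31. For E16 against E14, 5 lower genes became 3 under quantile normalization and without moderation and 0 with the stricter threshold. For P10 against P2, 1 gene was called with an intensity trend, with the mean of all probe sets and with only probe sets above 7 tested. Signs of single genes were followed for E18 against E16, P2 and P10 against E18, and Adult against P10. In these comparisons no difference of a gene that was called changed its sign. Foxm1 was called lower at E18 with the probe set of largest Range (-1.38) and with the mean of all its probe sets (-0.53). The causes were not tested. Scaling moved the median of all probe sets by at most 0.042 (quantile) and 0.050 (centring).

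The replicate numbers did not pair the arrays: over 21 pairs of time points the correlation of same-numbered deviations ran from -0.18 to 0.08, with 0 above 0.1. With the replicate number as a block, 32 genes were lower at E18 than at E16, 16 higher at P2, 14 higher at P10, 31 lower in Adult than at P10, 33 lower in Adult than at E12 and 3, in place of 5, lower at E16 than at E14. The shares of all genes with this block are not given.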
